A study of Rattus norvegicus with 25 samples.

Results

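Sik1 (ENSRNOG00000001189) encodes salt inducible kinase 1 and was described as 1 of the 32623 genes measured by RNA-seq in the rat hippocampus after the forced swim test (FST). It was found by its identifier in the table of every library. The gene was chosen by its measured values in these same rats, namely the difference between rats decapitated 20 min after the test and control rats and the level that remained at 24 h. Its levels and differences are therefore given as a description, with no test. The data covered 19 male Sprague Dawley rats in 25 libraries of polyA RNA. The 20-m group (n = 7) was killed 20 min after the test, the 24-h group (n = 6) was killed 24 h after it, and the control group (n = 6) did not swim. Both FST groups had also swum in a longer pretest on the day before, so neither group shows the test swim alone. Rats were separate animals, and each is named here by its number in the labels.

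SIK1 belongs to the AMPK-related kinases, which are switched on by the upstream kinase LKB1. It phosphorylates the CRTC coactivators and class IIa histone deacetylases, which keeps the CRTC proteins in the cytoplasm, away from the transcription factor CREB. The Sik1 gene is itself a target of CREB and is induced rapidly by cAMP and neuronal activity, so that the kinase takes part in a negative feedback on CREB-dependent transcription. In the deposited annotation it had 1 transcript of 4984 bases, and the posterior SD of its count in RSEM, the counting program, was 0 in all 25 libraries. RefSeq places the gene on chromosome 20, from 9947104 to 9958729 of GRCr8, a later build than the one the reads were aligned to.

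The promoter of Sik1 is shown because CREB binds the cAMP response element (CRE), spelled TGACGTCA. The window ran from 250 bases before to 50 after a RefSeq start site, chr20:9958597-9958896 on the minus strand of GRCr8. That start site lies inside the span of the gene given above, whose upstream end is 9958729. Distances below are counted from the start site of the window and would be shorter from that end. Capitals mark the CRE core, TGACG on either strand, and the line reads 5′ to 3′ along the gene.
Sik1 promoter: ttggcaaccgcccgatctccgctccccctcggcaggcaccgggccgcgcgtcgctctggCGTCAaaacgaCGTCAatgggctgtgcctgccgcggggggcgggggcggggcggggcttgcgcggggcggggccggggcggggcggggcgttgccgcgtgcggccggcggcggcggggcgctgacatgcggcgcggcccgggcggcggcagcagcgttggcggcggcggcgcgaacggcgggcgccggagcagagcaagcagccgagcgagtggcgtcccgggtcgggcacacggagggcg
No full CRE was found in these letters. There were 2 CRE cores, starting 191 and 180 bases before the window's start site, and both read CGTCA along the gene. The 8 letters around each differed from a full CRE at 1 position, counted from 1 at the CRE's 5′ end. The site 194 bases before the start was TGGCGTCA (A3G) and the site 183 bases before it was CGACGTCA (T1C). At least 2 CRE cores were present in 4.96% of the 33469 rat promoters of the same length, at least 1 in 21.2%, and a full CRE with at most 1 mismatch in 13.7%. The window was 81.3% G or C and held 8 GC boxes (GGGCGG on either strand). At least 2 GC boxes were found in 17% of promoters. It held no AP-1 site (TGANTCA, in 7.33% of promoters). A match of letters is no evidence of binding.

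The promoters of the other named genes were searched in the same way. A full CRE, which 1.83% of all promoters had, was found for Dusp1 and Btg2 and not for Apold1, Ccn1, Klf4 or Zfp36. Klf4, the gene whose level was most like that of Sik1 over the 19 rats, was among those without one. Without rat 13 Klf4 ranked 8th in likeness, and Dusp1 and Btg2 ranked 1st and 2nd. Whether a CRE bears on this likeness was not tested. The lines below show 21 bases around a CRE core, again in capitals, so that the Sik1 sites can be read against them.
Sik1, 191 bases before the start: cgctctggCGTCAaaacgaCG
Sik1, 180 bases before the start: CAaaacgaCGTCAatgggctg
Btg2, 201 bases before the start: cccaataaTGACGTCAgtgag
Dusp1, 124 bases before the start: agggcgggTGACGTCAccacc
Apold1, 42 bases before the start: cccagagcCGTCAttggttcc
Ccn1, 67 bases before the start: agcgcataCGTCActgcaaca
The full CRE is seen in Btg2 and Dusp1 as 8 capitals in a row. A core is read on both strands of every full CRE, so Btg2 counted 2 CRE cores and Dusp1 3. Apold1 and Ccn1 had 1 CRE core each, and the windows of Klf4 and Zfp36 had none. RefSeq promoters were matched for 7 of the 10 named genes. Atf3, Fos and Klf2 were not matched.

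Summed counts per rat ran from 6217600 to 9032924, with a median of 7365258 in the control group, 7180334 in the 20-m group and 7143222 in the 24-h group. Sik1 therefore rested on few counts, between 34 and 153 per rat. Its level was given as CPM, the share of a library's counts scaled by TMM, and its mean lay at percentile 34.8 of the 13908 genes tested. Intervals are exact Poisson intervals at 95% and cover counting error only. The labels name 5 batches. All 3 groups had 3 rats in Batch 1. In Batch 2 the FST groups again had 3 each, beside a single control, rat 25. The remaining batches, Batches 3 to 5, contained the repeat runs of control rats 21 and 27 and of rat 10 of the 20-m group, and no rat of the 24-h group. In bulk tissue, fewer cells of a type and less RNA per cell cannot be told apart.

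Across genes, 2 libraries stood apart from their groups. The median Spearman correlation with the other libraries of its own group was 0.962 for rat 13 of the 24-h group, against 0.973 to 0.976 for the other 5 rats. It was also 0.962 for rat 12 of the 20-m group, against 0.978 to 0.981 for the other 6. Rat numbers also differ between sources. The labels put rat 13 in the 24-h group, whereas the study's table of reads per rat lists that group under the numbers 14 to 19, with no rat 13, and likewise lists no rat 6 or 21. The study's table of how animals were divided does list rat 13 in the 24-h group. Unlike the labels, it also puts rats 10 and 12 in that group, and rats 17, 18 and 19 among the controls. Groups were taken from the labels. Whether rat 13 or any other rat is known in these sources by another number could not be settled. Values that rest on rat 13 are given with and without it.

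In the control rats Sik1 lay at 6.63, 10.5 and 8.87 CPM in rats 22, 24 and 28 of Batch 1, at 6.12 CPM in rat 25, and at 6.23 and 5.32 CPM in rats 21 and 27. These came from 60, 79, 72, 43, 38 and 34 counts. Rats 24 and 28 were the highest, and the other 4 lay between 5.32 and 6.63 CPM. The control mean was 7.28 ± 1.99 CPM (SD, n = 6), or 2.02 ± 0.655 TPM, which also scales by transcript length. Counting error alone gave an SD of 0.996 CPM, 25.1% of the control variance.

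**Figure D1:**
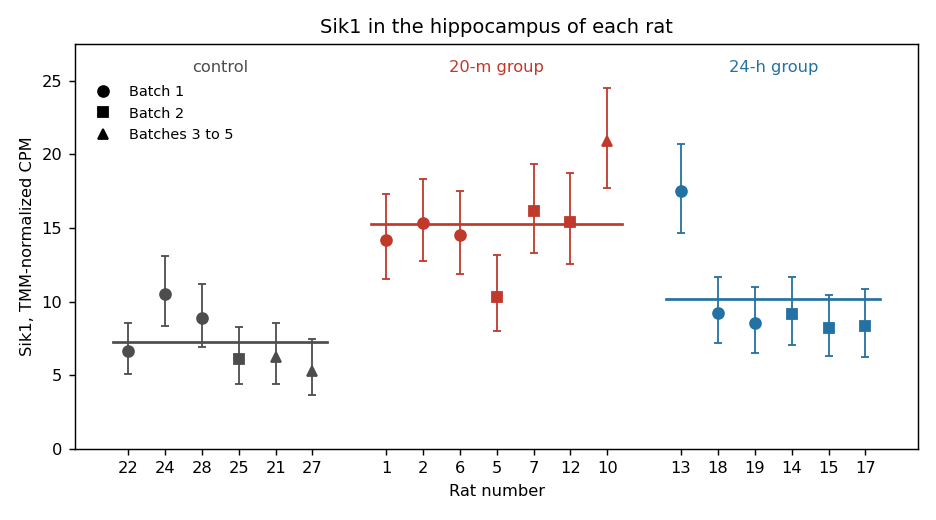
Sik1 in TMM-normalized CPM (y axis) in each of 19 rats (x axis, rat number, ordered by batch within a group). Bars are exact 95% Poisson intervals of the count, symbols mark the batch and horizontal lines are group means. Of the 20-m group, 6 of 7 rats lie above the highest control rat, and in the 24-h group rat 13 alone does.

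At 20 min after the test Sik1 was at 14.2, 15.3 and 14.5 CPM in rats 1, 2 and 6 of Batch 1, at 10.3, 16.1 and 15.4 CPM in rats 5, 7 and 12 of Batch 2, and at 20.9 CPM in rat 10. The counts were 98, 121, 107, 66, 116, 100 and 153. In 6 of 7 rats the level was above that of the highest control rat. Rat 5, at 10.3 CPM (7.98 to 13.1), lay just under control rat 24, at 10.5 CPM (8.33 to 13.1). The same held for at least 6 of 7 rats in 0.597% of the genes tested. The mean was 15.3 ± 3.13 CPM (SD, n = 7) or 4.06 ± 1.09 TPM, against 7.28 ± 1.99 CPM and 2.02 ± 0.655 TPM in the control group. The fitted log2 fold change, with batch as a term, was 1.14 (SE 0.192), a fold of 2.20. Among all genes tested 24 had a larger positive value. Sik1 was 1 of 6 genes called higher (Benjamini-Hochberg adjusted p under 0.05 in edgeR and a fold change over 1.5). That is 0.0431% of the genes tested, and nothing is read from this count since the contrast chose the gene. Sik1 was no longer among the genes called when control rat 21, 22, 25 or 27 was absent, or rat 7 or rat 10.

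The size of the difference varied with the batch. The difference in mean log2 CPM was 0.76 in Batch 1 (14.7 against 8.68 CPM, 3 rats each). It was 1.13 in Batch 2 (13.96 against 6.12 CPM), with 1 control rat, and 1.81 in Batches 3 to 5 (20.9 against 5.77 CPM), with 1 rat of the 20-m group. Whether the batches differed was not tested. The fit restricted to Batch 1, the batch with 3 rats in every group, gave 0.76. Leaving out each rat in turn gave 0.93 (without rat 10) to 1.26 (without control rat 24). Without rat 12 it was 1.11.

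Rats 10, 21 and 27 were sequenced in 3 runs each, which shows how far Sik1 moved with no change of animal. In rat 10 the runs had 45, 26 and 82 counts, or 27.6, 16.1 and 20.8 CPM of the run, with no TMM scaling. In control rat 21 they had 10, 7 and 21 counts, or 5.42, 3.86 and 8.20 CPM. In control rat 27 they had 9, 17 and 8 counts, or 4.68, 9.17 and 3.11 CPM. The lowest run of rat 10 was thus above the highest run of either control rat. Runs of rat 27 ranged from 3.11 to 9.17 CPM, with p = 0.0262 in an exact multinomial test, and adjusted p = 0.0785 over the 3 rats. The same exact test gave adjusted p = 0.119 for rat 10 and 0.197 for rat 21. Runs were summed and each rat was counted once.

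**Figure D2:**
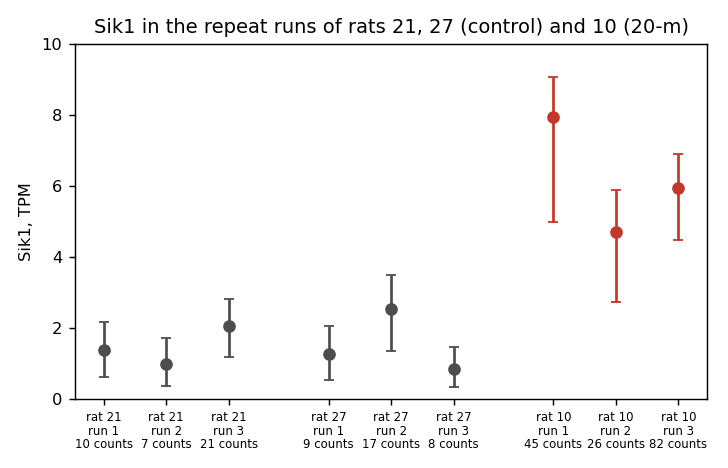
Sik1 in TPM (y axis) in each repeat run of control rats 21 and 27 and of rat 10 of the 20-m group (x axis, with the count of the run). Bars are the bounds deposited by the authors from RSEM. The runs of rat 10 lie above every run of the control rats, and runs of 1 rat spread visibly at 7 to 82 counts.

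At 24 h Sik1 stood at 9.22 and 8.52 CPM in rats 18 and 19 and at 17.5 CPM in rat 13, all of Batch 1. In Batch 2 it stood at 9.14, 8.19 and 8.31 CPM in rats 14, 15 and 17. The counts were 68, 60, 134, 63, 65 and 54. Rat 13 had a level within the range of the 20-m group (10.3 to 20.9 CPM), while the other 5 rats lay in a narrow band inside the control range (5.32 to 10.5 CPM). All 6 rats were above the control median of 6.43 CPM, which was so for 2.61% of the genes tested. Only rat 13 was above the highest control rat.

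The mean of the 24-h group was 10.1 ± 3.62 CPM (SD, n = 6), or 2.76 ± 0.924 TPM. Without rat 13 it was 8.68 ± 0.474 CPM (SD, n = 5), or 2.39 ± 0.209 TPM. The excess over the control mean was 2.86 CPM with rat 13 and 1.39 CPM without it, and the second is smaller than the control SD of 1.99 CPM. The spread of the remaining 5 rats, a coefficient of variation of 5.47%, was under the SD of 1.10 CPM that counting error alone gives, so it cannot be taken as their biological spread. The fitted log2 fold change against control was 0.55 (SE 0.21), a fold of 1.47, and 256 genes had a larger one. Without rat 13 it was 0.32, the lowest value when any 1 rat was left out, and without control rat 24 it was 0.69, the highest. The value stayed above 0 in all 19 of these fits and in 15 other settings. All of them reuse rats by which the gene was chosen, so the sign is a description and no support for a rise.

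Within Batch 1 the 24-h group was above control by 0.37 in mean log2 CPM (11.7 against 8.68 CPM). Without rat 13 this became 0.05, from 8.87 CPM in the other 2 rats against 8.68 CPM in the 3 control rats. In Batch 2, which has no library of rat 13, the difference was 0.46 (8.55 against 6.12 CPM) and rested on control rat 25 alone. With rats 13 and 25 both left out, a setting added after their values were seen, the fit gave 0.29. Not a single gene was called higher at 24 h against control in edgeR (0% of 13908), with 256 at an unadjusted p under 0.05.

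**Figure D3:**
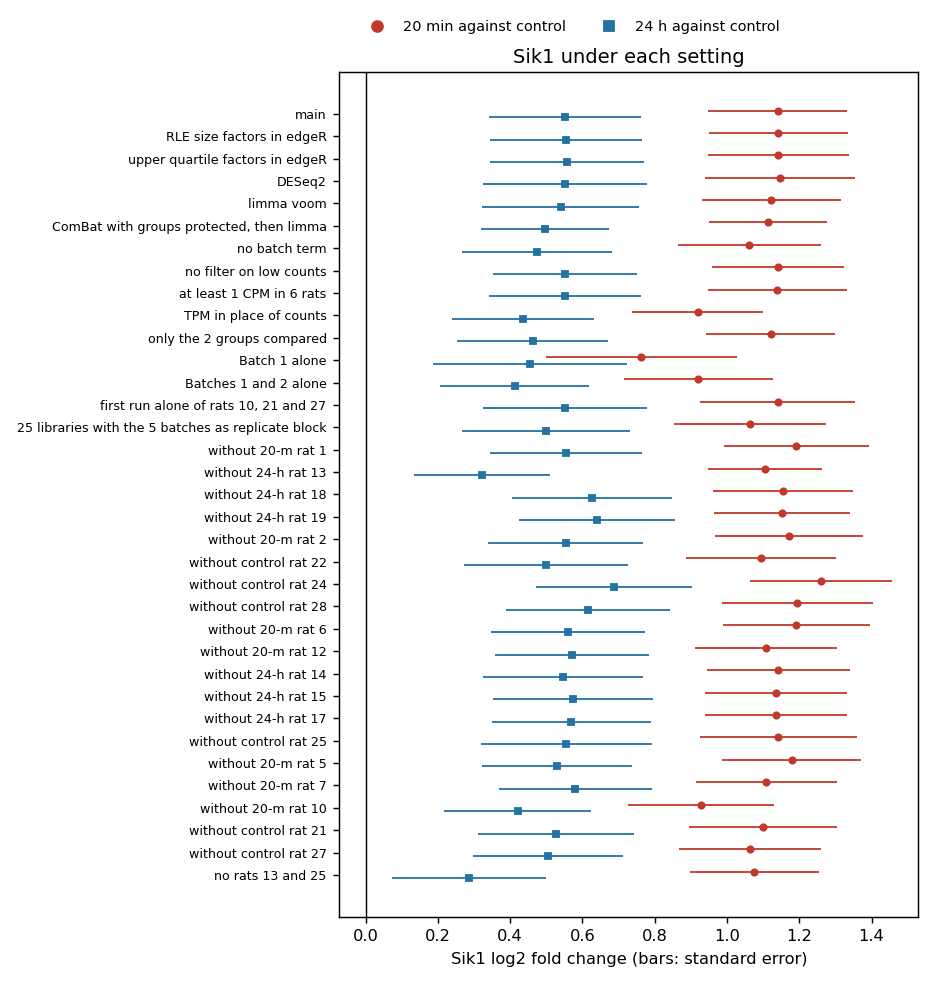
Fitted Sik1 log2 fold change (x axis) against control at 20 min (circles) and at 24 h (squares) under each setting (y axis), with standard errors as bars. The 24-h value is 0.55 in the fit of all rats, 0.32 without rat 13 and 0.29 without rats 13 and 25, and the 20-min value is lowest, 0.76, in Batch 1 alone.

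In order of level the groups ran control (7.28 CPM), 24-h (10.1 CPM) and 20-m (15.3 CPM). Control and 24-h rats overlapped in part, from 8.19 to 10.5 CPM. Control rats 21, 22, 25 and 27 lay below every 24-h rat, and of these only rat 22 is of Batch 1. The share of genes with such an order was not counted. Control rat 28, at 8.87 CPM, lay among the 5 rats other than rat 13. Control rat 24, at 10.5 CPM, lay above those 5 and below rat 13. The difference of the group means was smaller than the SD of the 24-h group. Of the 24-h rats, the 5 other than rat 13 were below the lowest rat of the 20-m group, rat 5. This was so for 0.367% of the genes tested. The fitted log2 fold change of 24 h against 20 min was -0.59 (SE 0.185), and it was -0.78 without rat 13. In Batch 1 the difference in mean log2 CPM was -0.39 with rat 13 and -0.71 without it. In Batch 2 it was -0.66 (8.55 against 13.96 CPM, 3 rats each).

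The library of rat 13 differed from its group in more than Sik1, by the values given above for its correlation, while its depth of 7538544 counts and TMM factor of 1.02 lay within the range of the group. In 3.62% of the genes tested it lay far above the rest of its group, with a gap to the next rat that passed Dixon's 95% critical value for 6 samples. For the other 5 rats that share was 0.194% to 0.496%. Sik1 in rat 13 was 2.01 times the mean of the other 5 rats, and 2.93% of genes tested reached at least 2 times. The part of this library's general difference in the Sik1 level was not tested.

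Among the early response genes named here, rat 13 was not uniformly high. It was the highest of the 24-h group for Atf3, a stress-induced transcription factor (2.03 times the mean of the other 5), for Klf4, a Krüppel-like transcription factor (1.96 times), and for Apold1, an endothelial early response gene (1.90 times). Atf3 has a low level, at 0.677 ± 0.336 CPM (SD, n = 6) in this group. Rat 13 was near the others for Dusp1, a MAP kinase phosphatase (1.15 times), for Fos, an AP-1 subunit (1.23 times), for Ccn1, a secreted matrix protein (1.15 times), and for Zfp36, an mRNA decay factor (1.02 times). It was the lowest rat for Btg2, an antiproliferative cofactor of mRNA deadenylation (0.798 times), and for Klf2 (0.754 times).

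**Figure D4:**
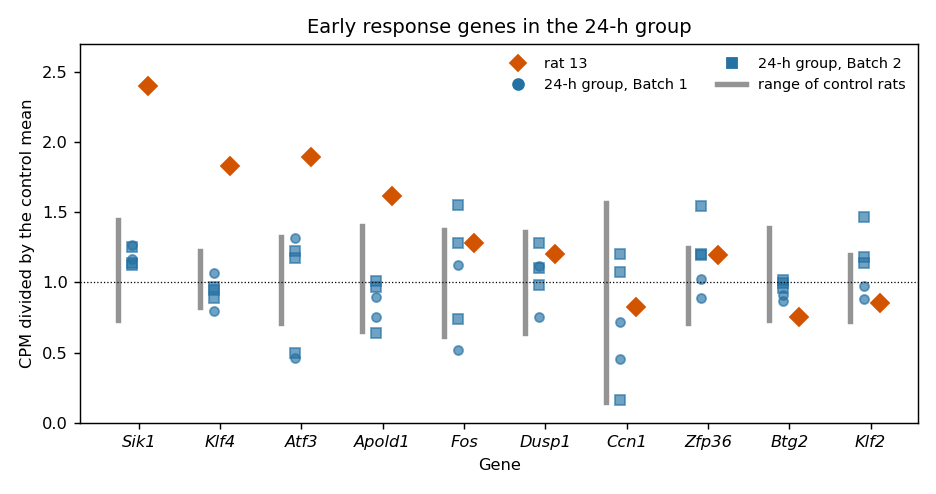
Level of 10 early response genes (x axis) in each rat of the 24-h group, as CPM divided by the control mean (y axis). Diamonds are rat 13, grey bars span the control rats. Rat 13 lies above the control range for Sik1, Klf4, Atf3 and Apold1 and within it for the other 6 genes.

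The other genes called higher at 20 min are given side by side with Sik1, and all share its control rats. At 20 min the log2 fold change was 3.38 for Ccn1 (SE 0.361, adjusted p = 7.92e-05 in edgeR) and 2.53 for Apold1 (SE 0.184, adjusted p = 4.36e-07 in edgeR). For Dusp1 it was 1.69 (SE 0.18, adjusted p = 7.92e-05 in edgeR) and for Zfp36 it was 1.12 (SE 0.148, adjusted p = 0.00148 in edgeR). ENSRNOG00000054344, which has no paired symbol, had 1.02 (SE 0.158, adjusted p = 0.00978 in edgeR), a call lost without control rat 25 or rat 10. The calls of Ccn1, Apold1, Dusp1 and Zfp36 were kept whichever of the 19 rats was left out. Sik1, at 1.14, was thus close to Zfp36 in size and well under Ccn1 and Apold1. At 24 h the log2 fold changes against control were -0.11 for Ccn1, 0.19 for Apold1, 0.18 for Dusp1, 0.38 for Zfp36 and 0.31 for ENSRNOG00000054344, each with adjusted p = 1 in edgeR, beside 0.55 for Sik1. Without rat 13 the value for Sik1 was 0.32, while the values given here for the other genes include that rat. As a share of the 20-min rise in mean CPM, the rise of Sik1 at 24 h was 35.9% with rat 13. Without rat 13 the share was 17.5% for Sik1, 26.2% for ENSRNOG00000054344, 16.4% for Zfp36 and 2.23% for Dusp1. It was below 0 for Apold1 and Ccn1. Whether Sik1 differed from these genes at 24 h was not tested.

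From 20 min to 24 h, 5 genes were called lower in edgeR (0.036% of those tested), and Sik1, for which no test is read, was not among them. They included Ccn1, with a log2 fold change of -3.49 (adjusted p = 0.000121 in edgeR), and Apold1, with -2.34 (adjusted p = 1.08e-06 in edgeR). Dusp1 had -1.51 (adjusted p = 0.000283 in edgeR) and Btg2 had -0.89 (adjusted p = 0.024 in edgeR), which was lost without rat 13, 18 or 19 of the 24-h group or rat 5, 6 or 7 of the 20-m group. Zfp36 had -0.74 (adjusted p = 0.0778 in edgeR), which missed the threshold.

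SIK1 restrains CREB through its coactivators, so genes known as CREB targets were set beside it. Of a list of 20, only Fos, Dusp1 and Btg2 could be paired with an identifier, from the study's own list of DEGs in these samples, which is not independent evidence of their direction. Of these 3, Dusp1 alone was called higher at 20 min, against 0.0431% of all genes tested. No excess is read from this share, since the 3 could be paired only through that list. Fos had a log2 fold change of 1.25 (SE 0.246, adjusted p = 0.0852 in edgeR) and Btg2 of 0.76 (SE 0.149, adjusted p = 0.0852 in edgeR). At 24 h against control Fos had 0.09 and Btg2 -0.13 (each adjusted p = 1 in edgeR), and none of the 3 was called. Other members of the SIK family, their substrates, the CREB coactivators and the hippocampal cell type markers could not be paired with identifiers and were not analysed here. The labelled tissue was therefore not checked against its markers.

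In TPM, which allows levels of genes to be compared, Sik1 was among the lower of the early response genes. The control means were 2.02 TPM for Sik1, 2.50 TPM for Apold1, 3.33 TPM for Klf4, 6.79 TPM for Dusp1 and 10.95 TPM for Btg2. At 20 min they were 4.06 TPM for Sik1, 12.7 TPM for Apold1, 5.58 TPM for Klf4, 20.2 TPM for Dusp1 and 17.5 TPM for Btg2. Sik1 thus lay below these 4 genes in both groups, and of the named genes Atf3 (0.469 TPM) and Ccn1 (0.656 TPM) were lower in control rats.

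The genes whose level followed that of Sik1 most closely over the 19 rats, by Pearson's r on log2 CPM, were Klf4 (r = 0.839, Spearman's rho = 0.772), Dusp1 (r = 0.797, rho = 0.730) and Apold1 (r = 0.787, rho = 0.721). They were followed by 2 identifiers with no paired symbol, ENSRNOG00000059453 (r = 0.766) and ENSRNOG00000020746 (r = 0.764). These values describe rats of 3 groups and share the difference between the groups, the libraries and their depth. The order rested in part on rat 13. Over the other 18 rats the closest were Dusp1 (r = 0.878, rho = 0.825), Btg2 (r = 0.872, rho = 0.870) and Ccn1 (r = 0.851, rho = 0.820), with Klf4 at 0.823 and Apold1 at 0.840. Btg2 had been 37th over all 19 rats (r = 0.685).

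Once group and batch were removed, the early response genes were no longer the closest. The 5 highest r, 0.759 to 0.792 over 19 rats, belonged to identifiers with no paired symbol. Klf4 had r = 0.646 and was 67th of 13907 genes, and without rat 13 it had r = 0.373. Btg2 moved the other way, from r = 0.250 to r = 0.592 without rat 13. Within groups and batches the residual SD of Sik1 was 0.342 on the log2 scale, and its coefficient of biological variation was 21.2%, against 16.99% on the trend for genes of its level.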

How the data were processed

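Hippocampal polyA RNA of 19 rats was sequenced in 25 libraries. Trimmed reads were aligned by the authors with STAR, and expected counts per gene, unnormalized, were deposited from RSEM for 32623 genes (annotation of Rnor 6.0). TPM values of these genes, also from RSEM, were deposited by the authors beside the counts. For STAR and RSEM the version is not given in the sources used here. No correction for batch is in these values. RSEM shares reads between similar genes.

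Expected counts were rounded and the runs of rats 10, 21 and 27 summed. Genes were kept by filterByExpr (minimum count 10, minimum total 15). All 19 rats entered 1 quasi-likelihood fit in edgeR, scaled by TMM, with terms for group and batch. Batches 3 to 5 formed a single level because the same rats were run in them. The residual degrees of freedom were 14. A standard error is the size of a log2 fold change over the root of its F statistic. Log2 CPM has a prior count of 2 and log2 TPM a pseudocount of 0.5. R 4.3.3, edgeR 4.0.16, limma 3.58.1, DESeq2 1.42.0, sva 3.50.0, Python 3.11.15, pandas 2.3.3 and scipy 1.17.1 were used. The fit was tested on simulated data. Alternatives changed the scaling, tool, filter, unit, batch handling and rats.

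Named genes were Sik1, members of pathway lists past the adjusted p or with the smallest p, the other genes called higher at 20 min, and the 5 genes with the highest Pearson r with Sik1, with and without group and batch removed, with at most 2 identifiers printed where no symbol is paired. Atf3, Klf2 and Klf4 come from the study's list of DEGs and were added. Sik1 and the lists were chosen with earlier results of these data known. Symbols of 10 identifiers were paired through the study's supplementary list, since the RefSeq table matched 0 Ensembl identifiers. Of the fixed lists, 1 of 8 SIK family members and upstream kinases was paired (Sik1), 0 of 15 SIK substrates and CREB factors, 3 of 20 CREB targets, 1 of 6 MAP kinase phosphatases (Dusp1) and 0 members of the 7 marker lists (neurons, astrocytes, oligodendrocytes, microglia, endothelium, choroid plexus, blood). The paper's text gives 6 rats at 20 min in 1 place and 7 in another, and the 7 of the labels were used.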

Additional observations from a re-analysis of the deposited data

Results flagged for a closer look

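In the 24-h group the level of Sik1 in rat 13, 17.5 CPM, lay apart from the other 5 rats (8.19 to 9.22 CPM), with a gap of 0.889 of the group's range. This level was known when the gene was chosen, so the gap is a description and no test. Klf4 in the same rat, 10.4 CPM, lay apart from the others (4.55 to 6.10 CPM), with a gap of 0.736. That gap passed Dixon's 95% critical value for 6 samples. With the gap of Sik1 set aside, no other of the 33 groups of rats looked at over 11 genes did. Chance flags about 1 in 20 groups, at either end and in any rat. The gaps of Sik1, Klf4 and Apold1 are all in the library of rat 13. That library passed the limit on the high side for 3.62% of all genes tested. For each other rat of the 24-h group that share, again of 1 rat on the high side, was 0.194% to 0.496%.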

How the results depend on the processing

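The Sik1 log2 fold change kept its direction in each comparison under all 15 settings and all 19 fits that left out a rat. Since the gene was chosen on these rats, that is a description only. The Sik1 value moved by more than the spread at 20 min against control in Batch 1 alone (0.76). Genes called higher at 20 min against control, 6, became 15 with DESeq2, 12 with ComBat and 0 in Batch 1 alone. Genes called lower there, 0 (506 at an unadjusted p under 0.05 in edgeR), became 3 with ComBat and 1 with no filter on low counts. Genes called higher at 24 h against 20 min, 0 (924 unadjusted), became 11 with DESeq2, 29 with ComBat, 2 with no filter, 1 with TPM, 6 with the replicate block and 0 to 3 without 1 rat, 3 being the count without rat 2 of the 20-m group. Genes called lower there, 5, became 16 with DESeq2, 25 with ComBat and 0 in Batch 1 alone. At 24 h against control 0 genes were called in either direction in every setting. Causes were not tested. Replicate numbers in the labels mark repeat runs and pair no rats. A limma voom fit of 25 libraries took the 5 batches as terms and the rat as replicate block (correlation within a rat 0.4199). It gave Sik1 1.06 at 20 min and 0.50 at 24 h. Sik1 was no longer called at 20 min in that fit. The same held with no batch term, with TPM, in Batch 1, in Batches 1 and 2 and with the first runs alone. Depth limits Sik1 to 34 to 153 counts per rat.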
